A study of Arabidopsis thaliana with 14 samples.

Results

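In Arabidopsis seedlings, 50 transcripts were chosen by their signals on the compound arrays, as higher with compound 7606596 than with compound 5929745 both 3 h and 12 h after addition. They were 50 of 22746 probe sets on the Affymetrix ATH1 array. A probe set was taken when the 7606596 mean was at least 1.6 times the 5929745 mean at each time, with 16 added to each mean signal. Both 7606596 arrays also had to lie above both 5929745 arrays, and the 7606596 mean signal had to reach 100. Another 10 probe sets met the same conditions and were left out by name, among them the late embryogenesis abundant (LEA) genes LEA18 and LEA4-5. The difference between the compounds was therefore fixed by the choice of members and is given below as a description only.

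The seedlings were wild-type Col-0, collected whole. The day length was 16 h with 8 h of darkness, at 22 °C. The seedlings spent 1 day in liquid 0.5x MS medium, and on day 6 after germination received either compound at 50 µM. There were 7 groups of 2 arrays: untreated seedlings at 0 h, 3 h and 12 h, seedlings with 7606596 at 3 h and 12 h, and seedlings with 5929745 at 3 h and 12 h. The series is titled for an albino chemical, the compounds are known here only by code names, and the labels do not say whether untreated seedlings received the solvent. Nor do they say that the 2 arrays of a group came from separate cultures, so p-values measure the spread between these arrays, which may be technical. In whole seedlings, fewer cells that make a transcript and less of it per cell cannot be told apart. Of the shoot markers, rubisco activase (RCA) had signals from 19188 to 36165 and the antenna protein gene LHCB4.1 from 18299 to 35266. The root hair expansin genes EXPA7 and EXPA18 ranged from 43.5 to 122.9 and from 24.5 to 157.6.

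Several named members belong to families known from drying seeds. LEA proteins, dehydrins among them, are hydrophilic proteins that accumulate late in seed development and in leaves that lose water, where they are thought to protect membranes and other proteins. Many LEA genes respond to abscisic acid, the hormone of drought and seed dormancy, and their transcripts normally decline once a seedling is established. Other members belong to families that reduce reactive aldehydes, coat lipid droplets or act in ubiquitin transfer.

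The annotation gave a single gene for 17 of the 50 members and several genes for 1, and 32 had no gene in it and are called by their probe set. The single-gene members lay on all 5 chromosomes, 7 of them on chromosome 1. The ratio of the compound means ran from 1.62 to 7.17 at 3 h, with a median of 2.30, and from 1.61 to 7.76 at 12 h, with a median of 1.98. It was larger at 3 h for 30 members and larger at 12 h for 20, and 22 members reached 2 at both times. The same rule turned round, for a higher 5929745 mean and with no gene left out by name, found 11 probe sets. Its counterpart is the 60 found before the 10 named genes were left out. Just inside the limit of 1.6 lay 266037_at and 265359_at, with 12 h ratios of 1.607 and 1.615. Just outside lay 266327_at and 247655_at, with 1.598 and 1.578.

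One array weighed on the choice at 12 h. Replicate 1 of 7606596 at 12 h was higher than replicate 2 in 48 of the 50 members, against 50.2% of all 15922 probe sets kept for testing. The exceptions were AT1G64370 and 251438_s_at. With 5929745 at 12 h, replicate 2 was the higher one in 37 members, against 48.9% of all probe sets. Setting the first arrays of the compounds against each other gave a median ratio of 2.29 at 12 h, and the second arrays gave 1.66. At 3 h these medians were 2.29 and 2.48. Without replicate 1 of 7606596 at 12 h the rule found 30 probe sets, 27 of them among the 50, and without replicate 2 it found 67, which held all 50. The part of this difference between arrays in the results below was not tested.

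A second difference between arrays concerns the untreated seedlings. The 3′ probe set of dap, a spike-in transcript added to the RNA before labelling, had signals from 428.6 to 543.5 on the 4 arrays from untreated seedlings after 0 h and from 133.2 to 217.2 on the other 10. Comparisons of a compound with its time-matched untreated seedlings cross this level, and treatment and that level cannot be told apart in them. Untreated seedlings at 3 h or 12 h set against 0 h cross it as well, so time and that level cannot be told apart there. Both compounds and the 0 h seedlings lie on the same side of it, so the 0 h signals are given with the members' values. The 25S rRNA probe set also differed between the compounds at 3 h. It had 466.0 and 531.1 on the 7606596 arrays and 759.6 and 850.3 on the 5929745 arrays, and the compounds overlapped at 12 h.

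**Figure D1:**
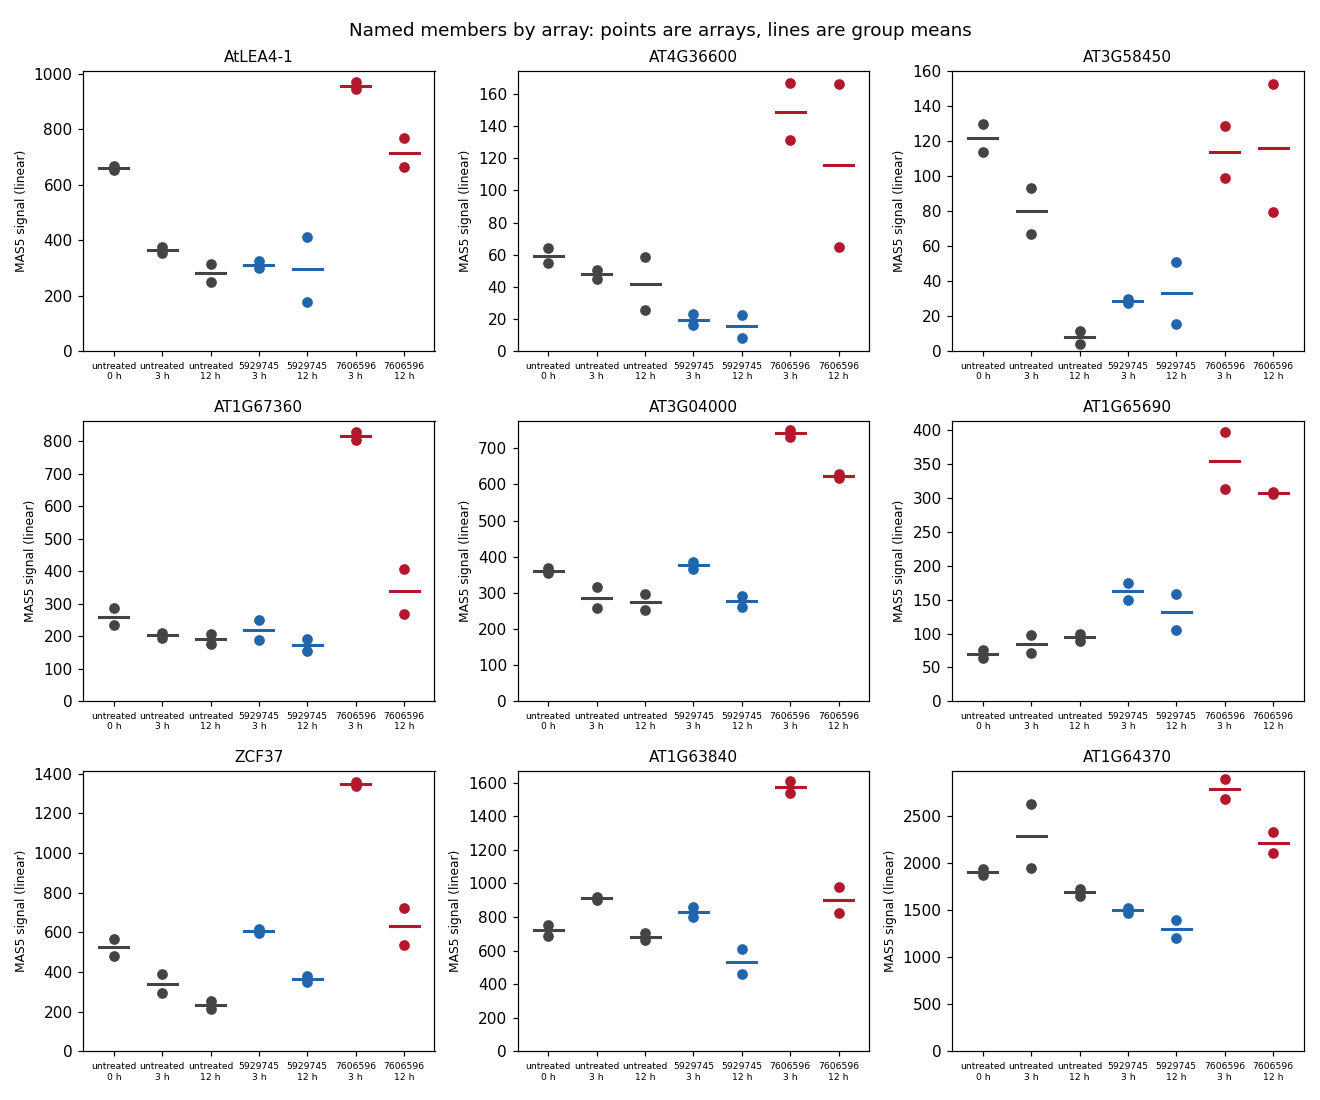
MAS5 signal (linear) of 9 named members on each of the 14 arrays, by group; points are arrays, short lines are group means, grey is untreated, blue 5929745 and red 7606596. At each time both red points lie above both blue points, as the choice of members required. Untreated points of the same time lie near the blue ones for AtLEA4-1 and AT1G67360 and below them for ZCF37 and AT1G65690.

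LEA and dehydrin genes were among those left out by name, so nothing is read from their count among the members. Of the 17 named members, 4 were LEA and dehydrin genes: AtLEA4-1 (AT1G32560), the dehydrin gene LEA (AT2G21490), AT4G36600 and AT4G21020. In all of them the 7606596 means lay above the 0 h mean and the 5929745 means below it, at both times. AtLEA4-1 had signals of 667 and 653 at 0 h, and of 354 and 376 at 3 h and 248 and 313 at 12 h without a compound. The 7606596 arrays had 943 and 970 at 3 h and 768 and 662 at 12 h, where the lower array overlapped those of 0 h. The 5929745 arrays had 298 and 323, and 178 and 412, close to those of untreated seedlings of the same times.

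Members were chosen with earlier results of these data known, but the rule used no untreated array. The untreated fall of AtLEA4-1 was therefore not part of the rule. It was -0.83 ± 0.23 on the log2 scale from 0 h to 3 h (standard error, limma, adjusted p = 0.0265) and -1.20 ± 0.23 from 0 h to 12 h (adjusted p = 0.000519). The 3 h call ended when any 1 of the 4 arrays was left out, and also with no filter or no variance trend. The 12 h call held in all 10 alternatives. Both comparisons cross the spike-in level described above. For the dehydrin gene LEA the untreated signals were 64.4 and 95.8 at 0 h, 39.6 and 24.3 at 3 h, and 50.0 and 38.9 at 12 h. They were 111 and 149 with 7606596 at 3 h and 154 and 103 at 12 h, against 23.4 and 25.7, and 3.41 and 40.7, with 5929745. Its untreated changes of -1.003 ± 0.39 and -0.66 ± 0.39 did not pass the test (adjusted p = 0.108 and 0.212).

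AT4G36600 and AT4G21020, both of the LEA family, were weak on these arrays. AT4G36600 had 167 and 131 with 7606596 at 3 h and 167 and 64.9 at 12 h, so its lower 12 h array was near the 0 h signals of 54.6 and 64.4. With 5929745 it had 16.5 and 22.8 at 3 h and 8.25 and 22.6 at 12 h, below both untreated arrays at each time (50.6 and 44.8, then 25.4 and 58.6). AT4G21020 had 92.1 and 103 at 0 h, and 132 and 135 with 7606596 at 3 h and 155 and 117 at 12 h. Its 5929745 arrays had 32.2 and 6.02 at 3 h, and 18.2 and 63.95 at 12 h. Many of these 5929745 signals lie below 42.3, the level used as a filter on the mean over all arrays, so the size of the ratios depends on the added 16. Neither gene passed the test for untreated seedlings, with changes from 0 h to 12 h of -0.44 ± 0.38 and -0.87 ± 0.37 (adjusted p = 0.396 and 0.0751).

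Enzymes formed another group of 4. AT3G04000, of the short-chain dehydrogenase/reductase family, which reduces carbonyl groups, had closely matching arrays. Its signals were 733 and 751 with 7606596 at 3 h and 629 and 619 at 12 h. The 5929745 arrays had 367 and 385 at 3 h and 261 and 291 at 12 h, untreated seedlings had 259 and 316, then 296 and 251, and the 0 h seedlings had 369 and 354. At 3 h both compounds thus lay above the untreated arrays of that time, and at 12 h 5929745 overlapped them.

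AT1G54870, of the same family, had 161 and 153 with 7606596 at 3 h and 184 and 135 at 12 h. With 5929745 the signals were 72.8 and 39.5, and 6.36 and 47.4, and at 0 h they were 77.4 and 153, so the 0 h arrays differed more from each other than most groups. AT3G54940, a papain-type cysteine protease, had 129 and 170 at 0 h, 239 and 184, and 198 and 109, with 7606596, against 90.8 and 70.4, and 14.04 and 70.1, with 5929745. AT4G20830, of the berberine bridge enzyme-like family of oxidases, had 761 and 479 at 0 h, 1371 and 1137, and 1204 and 882, with 7606596, and 770 and 560, and 611 and 648, with 5929745. Its 12 h 7606596 arrays overlapped the untreated ones of 668 and 915, as did those of one other member, the probe set 247360_at.

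Genes of lipid droplet, membrane and regulatory proteins numbered 5. AT1G67360, of the rubber elongation factor family whose members coat lipid droplets, had signals of 829 and 804 with 7606596 at 3 h and 408 and 268 at 12 h. All other groups lay lower than the 3 h pair: 188 and 252, and 156 and 191, with 5929745, 195 and 210, and 209 and 177, in untreated seedlings, and 236 and 286 at 0 h. The ratio of 7606596 to 5929745 was 3.53 at 3 h and 1.87 at 12 h.

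AT1G65690, of the NDR1/HIN1-like membrane protein family, was one of 2 named members with both compounds above untreated seedlings at both times. Its signals were 63.6 and 75.8 at 0 h, 70.7 and 98.4 in untreated seedlings at 3 h, and 99.6 and 89.6 at 12 h. The 5929745 arrays had 149 and 175, and 105 and 159, and the 7606596 arrays 397 and 313, and 309 and 306. AT5G13200, a GRAM-domain protein gene, had 313 and 292, and 220 and 164, with 7606596. Its 5929745 signals of 124 and 157, and 89.0 and 105, compare with 132 and 164 at 0 h. They lay above the untreated signals of 119 and 90.0 at 3 h and between those of 72.0 and 123 at 12 h.

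AT1G63840, a RING-finger gene of the class that includes ubiquitin ligases, had 685 and 755 at 0 h, 1539 and 1611 with 7606596 at 3 h and 977 and 823 at 12 h. The 5929745 arrays, with 857 and 798, then 459 and 612, lay below the untreated ones of 920 and 903, then 705 and 661. AT3G58450, of the universal stress protein family, had untreated signals that fell from 114 and 130 at 0 h to 4.11 and 11.7 at 12 h, a log2 change of -2.54 ± 0.35 (limma, adjusted p = 1.66e-05). With 7606596 it stayed near the 0 h level, at 98.9 and 129, then 153 and 79.6, while 5929745 gave 27.5 and 30.1, then 15.4 and 50.8. Its untreated 12 h level lies below the filter level of 42.3.

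For 4 named members no role is given here. ZCF37 (AT1G59590) was the other named member with both compounds above untreated seedlings throughout: 1356 and 1340 with 7606596 and 599 and 618 with 5929745 at 3 h, against 293 and 392 untreated. At 12 h these were 725 and 539, 352 and 381, and 212 and 256, and at 0 h the signals were 479 and 569. Its untreated signal dropped by 1.11 ± 0.16 from 0 h to 12 h (limma, adjusted p = 2.88e-05). AT5G07330 fell by 1.10 ± 0.28 in untreated seedlings (adjusted p = 0.00447) and AT2G21820 by 0.95 ± 0.30 (adjusted p = 0.0205). The call of AT5G07330 ended without untreated replicate 2 of 12 h (adjusted p = 0.0508). That of AT2G21820 ended without either 0 h array or replicate 1 of the untreated 12 h arrays (adjusted p up to 0.167). AT1G64370 had 1866 and 1929 at 0 h, 2676 and 2888, and 2108 and 2322, with 7606596, and 1521 and 1472, and 1205 and 1393, with 5929745, which lay below untreated seedlings at both times (2623 and 1941, then 1723 and 1650).

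Among the members without a single gene, a few are given because their values stood out once seen. The probe set 257654_at had 12743 and 12416 with 7606596 at 3 h, 3780 and 3381 with 5929745, and 1358 and 1457 untreated. At 12 h the signals were 8403 and 6173, 1979 and 3076, and 977 and 936, and at 0 h 1398 and 1323. Both compounds were thus above every untreated array, with 5929745 between 7606596 and the untreated seedlings. For 267238_at the signals were 9607 and 8528, 2433 and 2742, and 1286 and 1203 at 3 h, and 7798 and 6403, 1544 and 2296, and 983 and 964 at 12 h. Both compounds lay above the untreated arrays of the same time, but 1 array with 5929745 at 12 h lay below one of the 0 h signals of 1642 and 1529.

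The probe set 251438_s_at matches several genes, so that their shares cannot be separated. It had 1279 and 1742 at 0 h, and 7851 and 6572, 3166 and 2620, and 1527 and 1895 at 3 h. At 12 h it had 10158 and 11606, 2576 and 3804, and 2025 and 1904, so both compounds were above every untreated array. Another order was seen in 262128_at and 266462_at, which had the highest single ratios of the set, 7.76 at 12 h and 7.17 at 3 h. For 262128_at the signals were 274 and 332 at 0 h, 110 and 115 untreated, 113 and 116 with 5929745, and 610 and 728 with 7606596 at 3 h. At 12 h they were 92.2 and 94.7, 55.4 and 72.4, and 821 and 388. The 5929745 arrays overlapped the untreated ones at 3 h and lay below them at 12 h, and both lay below 0 h. For 266462_at the signals were 564 and 476 at 0 h, and 112 and 161 untreated, 108 and 76.8 with 5929745 and 740 and 781 with 7606596 at 3 h. At 3 h 5929745 thus lay below the untreated arrays. At 12 h the signals of 266462_at were 154 and 136 untreated, 125 and 199 with 5929745, and 685 and 380 with 7606596. There 5929745 overlapped the untreated arrays.

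**Figure D2:**
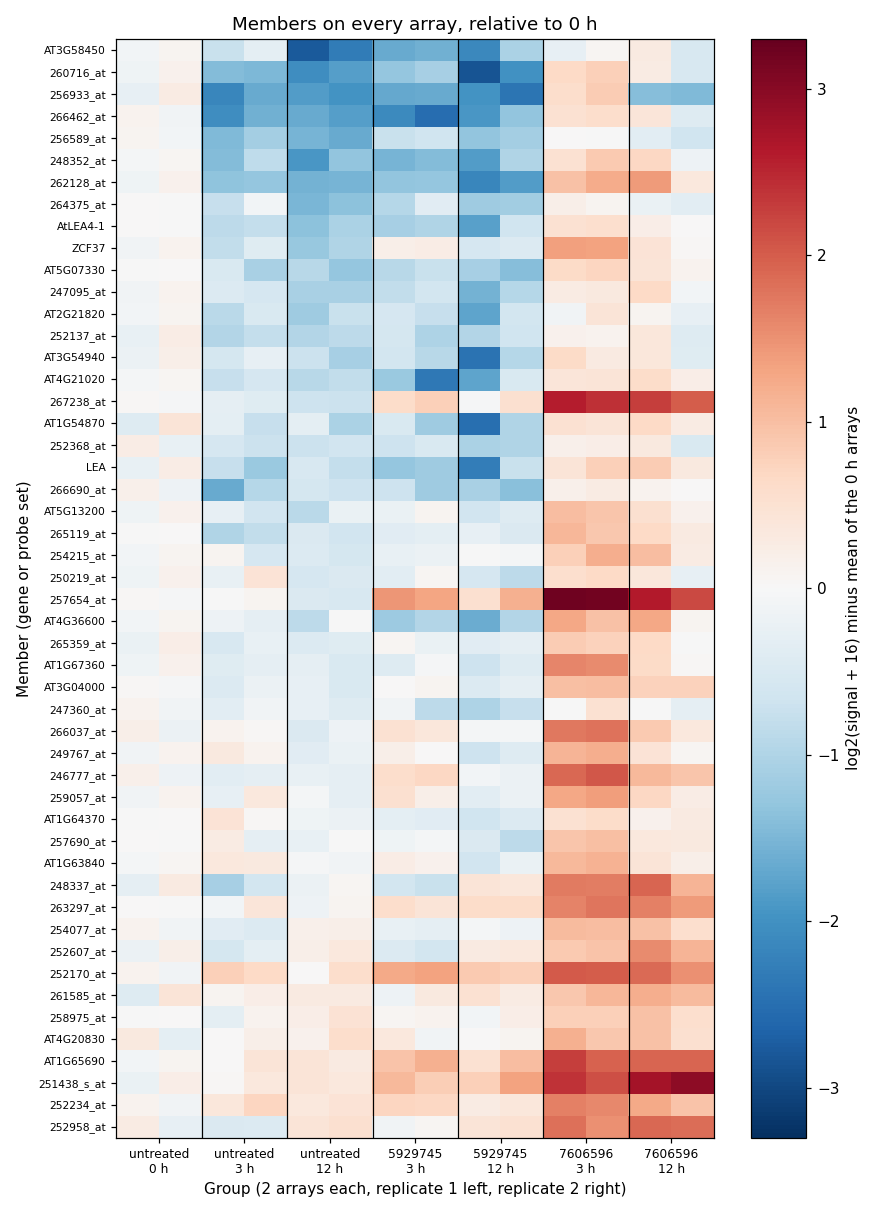
Log2(signal + 16) of all 50 members (rows) on the 14 arrays (columns, grouped; replicate 1 left), as the difference from the mean of the 2 arrays of 0 h, with blue below and red above it. Rows are ordered by the untreated 12 h level: in most of the upper rows the untreated and 5929745 columns are blue and the 7606596 columns pale, and in the lower rows the 7606596 columns are red and most others pale.

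In untreated seedlings more members fell than rose after 0 h. Of the 50 members, limma called 13 lower and 2 higher at 3 h than at 0 h, where 5.40% and 6.66% of all 15922 probe sets were called in these directions. At 12 h 20 were lower and 2 higher, against 15.2% and 19.9% of all probe sets. The median change of the members was -0.42 at 3 h and -0.51 at 12 h, and the medians over all probe sets were 0.03 and 0.05. The 3 h count was 9, with 7 lower, without untreated replicate 1 of 3 h, and the arrays cross the spike-in level described above.

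Both untreated 12 h arrays lay below both 0 h arrays in 33 members, and for all probe sets the share was 30.4%. In these 33 the 7606596 mean was 1.59 times the 0 h mean at 3 h and 1.2 times at 12 h, as medians with 16 added to each signal. The 5929745 mean was 0.646 and 0.503 times the 0 h mean, and the untreated mean was 0.696 times at 3 h. In the other 17 members the medians for 7606596 were 2.51 and 2.1, for 5929745 1.07 and 1.24, and for untreated seedlings 1.05 and 1.18. These ratios describe the members and support nothing, since the compound arrays chose them and the 0 h arrays enter both the split and the ratios. Both 5929745 arrays lay below both 0 h arrays at both times in 23 members, and in 12.9% of all probe sets. Low 5929745 arrays were part of the choice, so nothing is read from this count. The named ones among them with both 7606596 arrays also above both 0 h arrays throughout were LEA, AT4G36600, AT4G21020, AT5G07330 and AT1G64370. High 7606596 arrays were part of the choice too, so this order is a description.

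The position of the compounds relative to untreated seedlings of the same time was next described. Both 7606596 arrays lay above both untreated arrays in 50 members at 3 h and 48 at 12 h, against 22.8% and 21.6% of all probe sets. Since high 7606596 arrays were part of the choice, nothing is read from these counts alone. Both 5929745 arrays lay above the untreated ones in 17 members at 3 h and 16 at 12 h (22.1% and 22.3% of all probe sets), and below them in 9 and 14 (24.4% and 23.7%). The median difference from untreated seedlings was 1.34 for 7606596 and 0.06 for 5929745 at 3 h, and 1.12 and -0.05 at 12 h, on the log2 scale. Low 5929745 arrays were part of the choice as well. At both times 12 members had both compounds above the untreated arrays, and 2.98% of all probe sets did, a share that does not allow for the 7606596 part of the choice. ZCF37 and AT1G65690 were the named ones. Only AT4G36600, AT1G63840 and AT1G64370 had 5929745 below the untreated arrays at both times, 3 of 50, and 7.57% of all probe sets did.

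**Figure D3:**
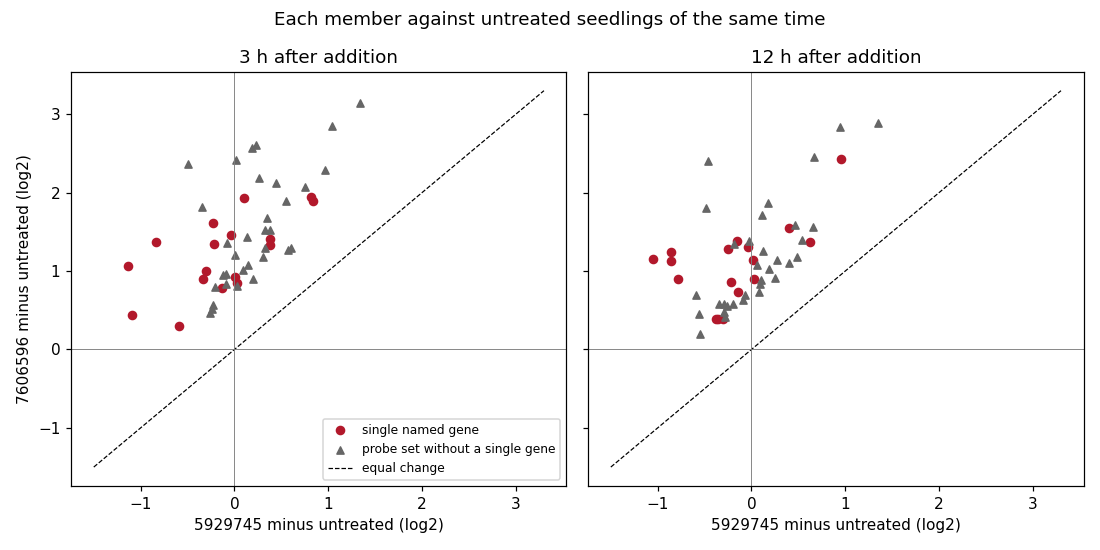
Log2 difference from untreated seedlings of the same time for each of the 50 members, 5929745 on the horizontal axis and 7606596 on the vertical axis, at 3 h (left) and 12 h (right); red circles are single named genes, grey triangles the other probe sets, and the dashed line marks equal change. Points lie above the line by the choice of members, spread to both sides of 0 for 5929745 (medians 0.06 and -0.05), and all lie above 0 for 7606596.

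The mean of both compounds was also set against untreated seedlings. It comes from the same 8 compound arrays that chose the members. Where 5929745 lies near the untreated level, this mean carries the 7606596 difference at reduced size. Single members differed, with 5929745 from -1.14 to 1.34 relative to untreated seedlings at 3 h (log2 scale). The counts of calls are therefore given as a description beside those of all probe sets, nothing is read from them, and differences of single members are given without a p-value. At 3 h limma called 26 of the 50 members higher and 0 lower, where 2.94% and 1.90% of all probe sets were called. The median was 0.72, with -0.01 over all probe sets.

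For ZCF37 the mean over both compounds was 1.38 ± 0.14 above untreated seedlings at 3 h (log2 scale, standard error). It was 1.36 ± 0.18 for AT1G65690, 1.01 ± 0.16 for AT1G67360, 0.90 ± 0.20 for AT5G13200 and 0.85 ± 0.12 for AT3G04000. For ZCF37 and AT1G65690 each compound alone lay above the untreated arrays, and for AT1G67360 the 5929745 arrays overlapped them. The LEA genes had 0.56 ± 0.20 for AtLEA4-1, 0.69 ± 0.34 for LEA, 0.26 ± 0.33 for AT4G36600 and -0.03 ± 0.32 for AT4G21020. For AT4G36600 the separate differences at 3 h were 1.37 with 7606596 and -0.84 with 5929745, and for AT4G21020 they were 1.07 and -1.14.

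At 12 h 19 members were called higher and 0 lower, where 1.35% and 0.572% of all probe sets were called, with a median of 0.54. Only 4 and 7 were called without untreated replicates 1 and 2 of 12 h. The difference was 0.99 ± 0.14 for ZCF37, 0.97 ± 0.18 for AT1G65690, 0.58 ± 0.12 for AT3G04000 and 1.69 ± 0.31 for AT3G58450. It was 2.12 ± 0.14 for 257654_at, 1.89 ± 0.13 for 267238_at and 1.56 ± 0.15 for 251438_s_at. For AT3G58450, with untreated 12 h signals below the filter level, it ran from 0.85 to 2.83 over the alternatives.

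Against the 0 h seedlings, which share the spike-in level of the treated ones, the mean of both compounds at 3 h was called higher in 18 members and lower in 1, where 6.53% and 4.68% of all probe sets were called. The difference was 1.58 ± 0.18 for AT1G65690, 0.78 ± 0.14 for ZCF37 and 0.66 ± 0.12 for AT1G63840. At 12 h 13 were called higher and 13 lower, where 19.6% and 14.3% of all probe sets were called, and without replicate 1 of 0 h these were 12 and 3. The 12 h difference was 1.34 ± 0.18 for AT1G65690 and -0.56 ± 0.20 for AtLEA4-1. Comparisons with 0 h, those of untreated seedlings among them, share its 2 arrays, and also hold 3 h or 12 h more in the medium. They may also differ in time of day, within a day of 16 h light and 8 h darkness, which was not tested.

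Between 3 h and 12 h the mean of both compounds was called lower in 22 members and higher in 4, where 18.2% and 21.1% of all probe sets were called, with a median of -0.36 against 0.01. The change was -0.90 ± 0.11 for ZCF37, -0.79 ± 0.13 for AT1G67360, -0.71 ± 0.10 for AT1G63840, -0.55 ± 0.16 for AT5G13200 and -0.33 ± 0.10 for AT3G04000. The other named members called lower were AT3G54940 (-0.69 ± 0.26) and AT1G64370 (-0.27 ± 0.09), and both calls ended under several alternatives that left out an array. The call of AT5G13200 ended without replicate 2 of 5929745 at 3 h and without replicate 2 of 7606596 at 12 h. The highest of the 7 group means was that of 7606596 at 3 h for 42 members and of 7606596 at 12 h for 7. It was that of untreated seedlings at 0 h for 1, which was AT3G58450. The choice asked for high 7606596 arrays, so nothing is read from these counts.

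**Figure D4:**
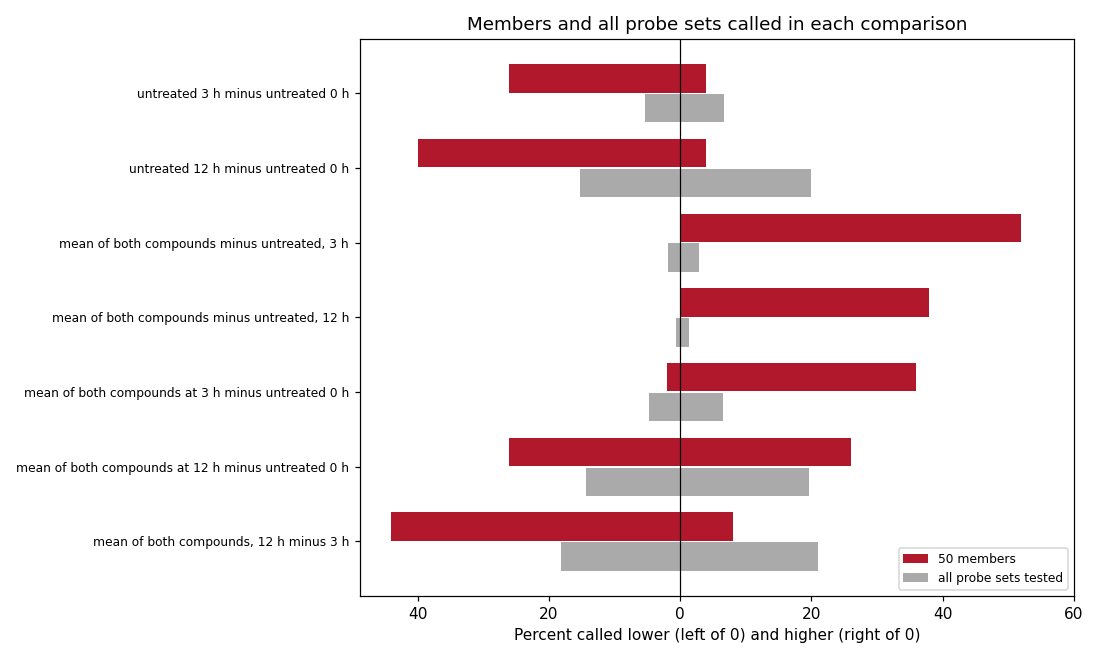
Percent of the 50 members (red) and of all 15922 tested probe sets (grey) that limma called lower (left of 0) or higher (right of 0) at an adjusted p under 0.05, in 7 comparisons. The top 2 use untreated arrays alone and had more members lower than higher (13 against 2 at 3 h, 20 against 2 at 12 h), while the other 5 hold the compound arrays that chose the members and are shown as a description.

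Genes of known stress pathways were looked at beside the members. Of 327 genes in 16 lists, 38 had a kept probe set of their own, and 0 of these were members. In the comparison of 7606596 with 5929745 at 3 h limma called 4 of the 38 higher and 0 lower. Of all probe sets 0.735% and 0.182% were called. At 12 h it called 2 higher and 0 lower, against 0.502% and 0.345% of all probe sets. The lists were chosen with earlier results of these data known, so nothing is read from these counts. Of these calls 2 at 3 h and 1 at 12 h were of LEA4-5 and the dehydrin gene LTI30, in the abscisic acid, drought and cold list with 4 measured genes. Both met the rule on this same difference and were left out of the members by name, so their values are a description: 1.52 at 3 h and 1.64 at 12 h for LEA4-5, and 1.14 at 3 h for LTI30. COR47 and COR15B, the other measured genes, had differences of 0.31 and -0.23 at 3 h.

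Because earlier results were known when the lists were chosen, values and calls of listed genes are a description. Of 15 listed lipid-transfer protein genes 2 were measured, AT3G22620 and AT2G48130. Both were called higher at 3 h, with differences of 2.79 and 2.54. At 12 h their differences were 0.19 and 0.29 and neither was called. In the detoxification and electrophile list 0 of 11 genes were called at 3 h, with 3 of unadjusted p under 0.05. At 12 h 1 was called, the alkenal reductase gene AER (0.59, adjusted p = 0.0392). Limma called 0 genes at either time in the lists of mitochondrial dysfunction (3 measured), jasmonate (1), heat shock (3), endoplasmic reticulum stress (1), rapid stress regulators (4), salicylate (1), sugar starvation (4), shoot markers (2) and root markers (2). At 3 h unadjusted p was under 0.05 for 1 gene of mitochondrial dysfunction, 2 of heat shock and 1 of the rapid regulators, and at 12 h for 1 of mitochondrial dysfunction and 2 of sugar starvation. The lists of wax, cutin and suberin, hypoxia, flavonoids and seed storage had no gene whose own probe set passed the filter, so seed storage transcripts were not analysed here.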

How the data were processed

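The deposited values are MAS5 signals, per the submitters' processing notes, with no version given. They are linear signal intensities, and the values deposited by the authors have array medians from 152.0 to 168.8 and nearly equal trimmed means from 500.047 to 500.052. The platform annotation named a single gene for 13513 of 22746 non-control probe sets, and symbols were updated through RefSeq gene IDs. A filter dropped probe sets whose mean signal was under 42.3, the 30th percentile, which left 15922 with all 50 members among them. The fit used limma 3.58.1 (R 4.3.3) on log2(signal + 16), estimating the mean of every one of the 7 groups, with a variance trend and Benjamini-Hochberg adjustment over all kept probe sets. Calls are at adjusted p under 0.05, two-sided. Single-gene members were all open to naming; other probe sets were singled out after their values were seen. Members and lists were chosen with earlier results of these data known. A simulation with known changes was used to check the fit. The number of arrays limits the precision. Differences of 1 compound, or of the mean of both, from untreated seedlings or over time are given without p-values for single members, since the rule used those arrays; counts of calls for the mean are a description. Only comparisons of untreated seedlings over time use no array that the rule used. Replicate numbers did not pair the arrays: replicate differences correlated between groups at -0.20 to 0.12 over 21 pairs. Promoter and protein sequences were not used here, so the planned motif description was not made.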

Additional observations from a re-analysis of the deposited data

Results flagged for a closer look

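For 2 members, both without a gene in the annotation, the mean of both compounds relative to untreated seedlings differed between 12 h and 3 h in a test of that difference (limma), where 0.107% of all probe sets were called higher and 0.132% lower. For 256933_at the change was -1.33 on the log2 scale, from 1.42 above untreated seedlings at 3 h to 0.09 at 12 h. Its 7606596 signals were 1293 and 1549 at 3 h and 315 and 303 at 12 h, and the untreated ones 181 and 262, then 228 and 208. For 246777_at the change was -0.93, from 1.63 to 0.69, with 7606596 signals of 733 and 814, then 403 and 367. Both calls ended when some single arrays were left out. Over 18 alternatives the call of 256933_at ended in 7 and that of 246777_at in 14. The compound arrays in this comparison also chose the members, so these values are a description.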

How the results depend on the processing

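The number of members was 22 with a ratio of 2, 33 with an offset of 64 in the ratio, and between 30 and 67 when single arrays were left out; the remaining alternatives kept it within 1.5 times of 50. Members called for the mean of both compounds against untreated seedlings at 12 h numbered 11 with no filter, 10 with no variance trend and 4 to 22 without single arrays. At 3 h they numbered 19 to 26 without single arrays. The corresponding ranges were 9 to 13 for untreated 3 h and 15 to 18 for untreated 12 h against 0 h, 16 to 18 and 15 to 29 for both compounds at 3 h and 12 h against 0 h, and 19 to 28 from 3 h to 12 h. The difference between 12 h and 3 h was called for 0 members with no filter or no variance trend, 1 with the replicate block and 0 to 3 without single arrays. With the replicate block each of the other counts stayed within 1.5 times of its value. Of listed genes at 12 h, 1 was called with no filter and 1 with no variance trend. No single call among the members changed direction under any alternative run. The cause of these changes was not tested. With 2 arrays a group, and weak signals near the filter level, small differences can be missed.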
